A study of Homo sapiens with 4 samples.

Results

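The genes described are 10 immediate early genes: EGR1, EGR2 and EGR3, NR4A1, NR4A2 and NR4A3, IER2, IER3 and IER5, and SRF. They were taken by symbol from 57820 Ensembl gene IDs, and all 10 were listed once in each of 4 RNA-seq libraries of MOLM-13. MOLM-13 is an established human acute myeloid leukaemia line of monocytic type. The 2 untreated control libraries came from MOLM-13 cells without doxycycline, and the 2 GADD45g induced libraries from MOLM-13 cells kept for 4 days in doxycycline, at 1 mg/ml in the labels, so that GADD45G was overexpressed. GADD45G is a stress-induced adaptor of the p38 and JNK kinase cascades. The design text speaks of 2 biological replicate experiments. The labels name neither the promoter of the construct nor whether the controls carry it. No control for doxycycline alone was analysed here, so doxycycline and GADD45G cannot be told apart.

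Immediate early genes are transcribed within minutes of a growth factor, cytokine or stress signal, without new protein synthesis, through transcription factors that are already in the cell. One such factor is the serum response factor SRF, which binds the CArG box together with ETS-domain partners phosphorylated by MAP kinases. A second is CREB, which binds the cAMP response element. EGR1, EGR2 and EGR3 are zinc finger transcription factors, and EGR1 and EGR2 are known for roles in monocyte and macrophage development. NR4A1, NR4A2 and NR4A3 are orphan nuclear receptors that act without a known natural ligand, and NR4A1 and NR4A3 are known as suppressors of myeloid leukaemia in mice. IER2 and IER5 are related nuclear proteins, and IER3 (also IEX-1) is a short-lived protein linked to cell survival and to ERK signalling.

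The promoters of EGR1, EGR2, SRF and NR4A3 are shown because they hold the binding sites through which this class of genes is known to respond, and because their transcripts did not move alike in the libraries. The sequences are RefSeq's (build GRCh38.p14), 250 bases up to the start site, 5′ to 3′, with CArG boxes and the core TGACG of the cAMP response element in capitals (CGTCA is TGACG on the other strand). Of the 3 start sites of EGR2 and the 2 of SRF, the one whose window holds a CArG box is shown. They lie at chr5:138465229-138465478 (plus strand) for EGR1, chr10:62816367-62816616 (minus strand) for EGR2, chr6:43171019-43171268 (plus strand) for SRF and chr9:99821635-99821884 (plus strand) for NR4A3.
EGR1: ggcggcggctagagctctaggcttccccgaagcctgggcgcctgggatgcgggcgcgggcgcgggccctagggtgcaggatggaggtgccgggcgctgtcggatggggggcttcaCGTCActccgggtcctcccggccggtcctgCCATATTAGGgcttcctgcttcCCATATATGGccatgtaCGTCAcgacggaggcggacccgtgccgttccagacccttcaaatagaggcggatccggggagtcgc
EGR2: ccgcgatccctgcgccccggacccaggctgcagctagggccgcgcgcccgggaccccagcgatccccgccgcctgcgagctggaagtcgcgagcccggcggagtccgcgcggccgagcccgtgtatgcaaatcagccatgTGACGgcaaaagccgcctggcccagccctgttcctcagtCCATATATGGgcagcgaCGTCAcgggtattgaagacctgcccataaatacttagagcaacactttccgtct
SRF: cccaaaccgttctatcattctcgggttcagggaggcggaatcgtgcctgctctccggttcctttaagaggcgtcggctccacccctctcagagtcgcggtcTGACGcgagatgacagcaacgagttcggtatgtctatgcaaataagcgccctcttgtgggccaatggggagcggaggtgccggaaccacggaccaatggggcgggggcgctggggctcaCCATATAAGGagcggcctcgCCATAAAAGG
NR4A3: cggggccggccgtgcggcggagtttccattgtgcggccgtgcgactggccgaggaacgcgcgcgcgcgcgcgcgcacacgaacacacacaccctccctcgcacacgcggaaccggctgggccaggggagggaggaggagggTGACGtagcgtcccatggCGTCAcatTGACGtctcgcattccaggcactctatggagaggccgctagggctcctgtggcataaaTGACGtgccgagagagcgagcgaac

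RefSeq windows of 300 bases, of which 50 lie after the start, were present for 7 of the 10 genes, with 11 windows in all. EGR3, NR4A2 and IER3 had none. A CArG box (CC, 6 bases of A or T, GG) was found in 3 of these 11 windows, 1 each of EGR1, EGR2 and SRF, and in 1.29% of all 35116 windows in the table. EGR1 held CCATATTAGG and CCATATATGG, whose first bases lie at -105 and -83 from the start. The most downstream of the 3 EGR2 windows held CCATATATGG at -71, and the other EGR2 windows held none. SRF held CCATATAAGG at -30 and CCATAAAAGG at -10. The core TGACG, searched on both strands, was present in 5 of the 11 windows and in 24.6% of all windows, and the NR4A3 window held 4 copies, the first bases of which lie at -109, -91, -83 and -25. The full element TGACGTCA, which contains the core (1.85% of all windows), the EGR site GCGTGGGCG (0.795%) and the NR4A site AAAGGTCA (1.22%) were found in 0 of the 11. These are matches of letters in a window and were not measured as bound sites.

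RPKM values divide the reads of a gene by its length and by the depth of the library, and group levels are means ± SD (n = 2). The libraries held 15683931 to 18895470 reads, as recovered from the values. Changes are differences in log2(RPKM + 1), induced minus untreated, ± SE, and are understated for low genes. They were tested with limma at a Benjamini-Hochberg adjusted p under 0.05, over the 10771 genes whose mean reached 1 RPKM. GADD45G, the gene to be overexpressed, had 10.5 and 0.289 RPKM in the untreated libraries and 3236 and 2118 RPKM after induction. Of 12 markers of myeloid leukaemia cells, 8 were at 1 RPKM or more in all 4 libraries, SPI1, CD33 and LYZ among them, while MPO and CD68 stayed under 1 RPKM throughout. The 12 summed to 1431 and 1126 RPKM in the controls and 503 and 462 RPKM after induction, mostly LYZ. The other 11 summed to 258 and 259 RPKM in the controls and 235 and 220 RPKM after induction, but did not move alike. ITGAM, SPI1, PTPRC and MPO had both induced values above both controls, MPO barely (0.225 RPKM in GADD45g induced 2, 0.211 RPKM in untreated control 2). CD33, CD4, FLT3 and MEIS1, like LYZ, had both induced values below both controls. Of all tested genes, 24.1% had both induced values above the controls and 45.8% below. Among the 9 of these markers that were tested, 3 passed, where 38.9% of all tested genes did. Epithelial markers set 2 libraries apart. The 8 markers summed to 40.2 RPKM in untreated control 1 and 39.7 RPKM in GADD45g induced 1, against 0.125 and 0.126 RPKM in the number 2 libraries. Lymphoid markers summed to 327 and 345 RPKM in the controls and 154 and 137 RPKM after induction, nearly all of it NKG7, with CD3D, CD3E, CD2, CD79A and MS4A1 under 1 RPKM. Summed fibroblast markers ranged from 3.92 to 5.17 RPKM in the controls and from 6.86 to 8.14 RPKM after induction. The part of these markers in the results that follow was not tested. In RNA from whole cultures, fewer cells of a type and less RNA per cell cannot be told apart.

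After induction, 4 of the 7 genes that could be tested rose, IER3, EGR2, IER5 and NR4A1, and 0 fell, while IER2, EGR1 and SRF did not pass. Among all tested genes, 38.9% were called, 12.2% higher and 26.7% lower. The 10 genes and the lists below were chosen with earlier results of these data known. The median log2 change of the 7 was 1.47, against -0.21 over all tested genes. Both induced values lay above both controls for 5 of the 7, and both below for 0 of the 7. Of all tested genes 24.1% had both induced values above the controls and 45.8% below, 70.0% in all. NR4A3, not tested, also lay above, which makes 6 of the 10 genes. EGR3, NR4A2 and NR4A3 had means below 1 RPKM and stood outside the test. EGR2 reached that mean through its induced values alone, as its control mean was 0.535 RPKM, so the counts over the 7 include a gene admitted by its own change. Quantile normalization changed the overall split from 1314 higher and 2871 lower to 1874 and 2080, and upper quartile scaling to 1700 and 2293, with median changes of -0.00087 and -0.061. Of the 7 genes, 4 were called higher after quantile normalization and 5 after upper quartile scaling, which added IER2.

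**Figure D1:**
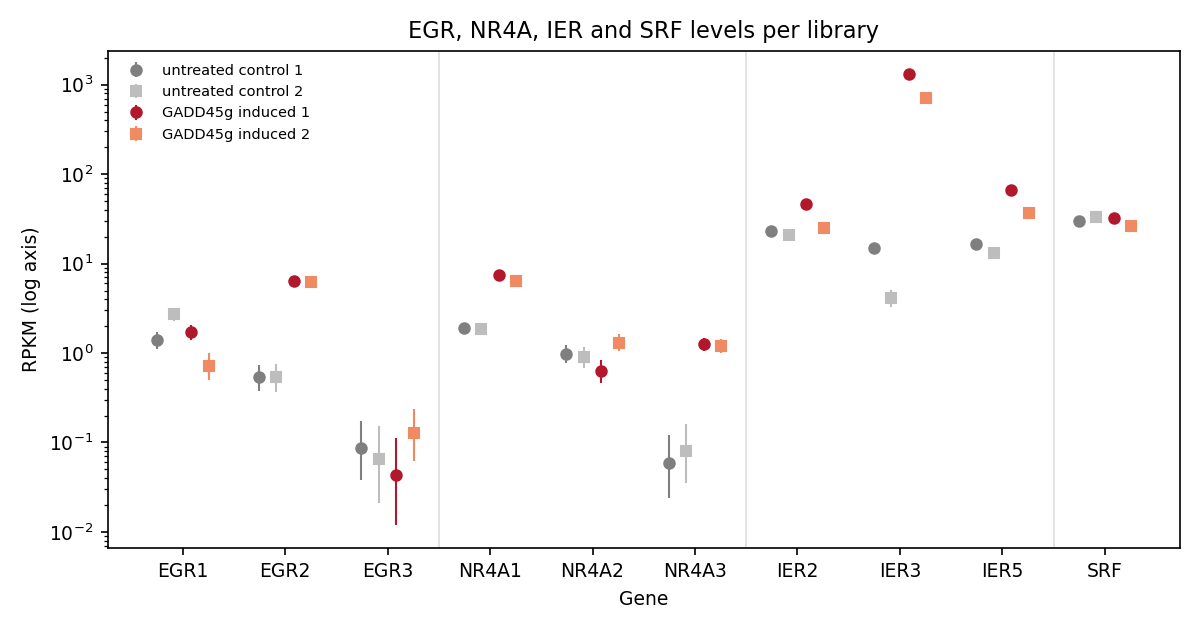
RPKM (log axis) of the 10 genes in each of the 4 libraries, circles for the number 1 and squares for the number 2 libraries, with bars for the 95% exact Poisson interval of counting. IER3, EGR2, NR4A1, NR4A3, IER5 and IER2 have both induced points above both control points, while EGR1, EGR3, NR4A2 and SRF overlap.

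In the controls the highest of the 10 was SRF (31.6 ± 2.57 RPKM), followed by IER2 (22.1 ± 1.71), IER5 (14.8 ± 2.53) and IER3 (9.53 ± 7.69). Of these neighbours only the values of IER5 and IER3 overlapped. EGR1 (2.05 ± 0.927 RPKM) and NR4A1 (1.86 ± 0.039 RPKM) overlapped, and NR4A2 (0.940 ± 0.056 RPKM) stood above EGR2 (0.535 ± 0.0012 RPKM). In untreated control 2, however, the counting intervals of NR4A2 (0.680 to 1.17 RPKM) and EGR2 (0.364 to 0.761 RPKM) overlapped. EGR3 (0.0767 ± 0.0156 RPKM) and NR4A3 (0.0699 ± 0.0154 RPKM) overlapped near the limit of detection. After induction the order was led by IER3 (1014 ± 439 RPKM). IER5, IER2 and SRF came next, where the values of IER5 and IER2 overlapped and those of IER2 and SRF did, but not those of IER5 and SRF. They were followed by NR4A1 and EGR2, which also overlapped. NR4A3, EGR1 and NR4A2 followed with overlapping values, and EGR3 stayed last. Of the 10771 tested genes ordered by mean RPKM, IER3 moved from place 4711 to place 22 and EGR2 from place 10678 to place 5586.

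Among the EGR genes, EGR2 alone passed the test. EGR2 (ENSG00000122877), the zinc finger factor that acts in macrophages and in myelinating Schwann cells, was at 0.534 and 0.536 RPKM in the controls (37 and 31 reads) and at 6.38 and 6.23 RPKM after induction (445 and 367 reads). The libraries of each group lay close together, and the groups were far apart. The fold of means was 11.8, and the log2 change was 2.25 ± 0.21 (SE; limma adjusted p = 2.99e-05). With the pseudocount lowered to 0.1 RPKM the log2 change was 3.33, and with a pseudocount of 5 RPKM it was 1.03, both past the threshold.

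EGR1 (ENSG00000120738), the founding member of the family and a serum-inducible factor, did not pass. It was at 1.39 and 2.70 RPKM in the controls (82 and 133 reads) and at 1.70 and 0.718 RPKM after induction (101 and 36 reads). The groups overlapped, since GADD45g induced 1 lay between the controls, and the controls themselves differed by more than their counting intervals (1.11 to 1.73 and 2.26 to 3.20 RPKM). The log2 change of -0.47 ± 0.29 did not pass (limma adjusted p = 0.231), with a 95% interval of -1.11 to 0.17. The number 2 libraries alone gave -1.11 and the number 1 libraries alone 0.18, differences without a test.

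EGR3 (ENSG00000179388), a further member with a like DNA-binding domain, was barely detected. It had 8 and 5 reads in the controls and 4 and 10 reads after induction, which correspond to 0.0877, 0.0657, 0.0436 and 0.129 RPKM. The groups overlapped, and the counting interval of the lowest library (0.0119 to 0.112 RPKM) met that of the highest (0.0619 to 0.237 RPKM). At these counts a difference of this size was not detectable. In the fit without a filter its log2 change was 0.012 ± 0.055 (limma adjusted p = 0.924). An antisense gene overlaps EGR3 over 3153 bases.

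NR4A1 and NR4A3 were higher after induction, while the groups overlapped for NR4A2. NR4A1 (Nur77, ENSG00000123358), the family member best known from T cell activation, was at 1.89 and 1.84 RPKM in the controls and at 7.53 and 6.36 RPKM after induction. Both groups were tight and did not overlap. The antisense gene NR4A1AS overlaps it over 1045 bases and its reads cannot be told apart from those of NR4A1. The fold of means was 3.72 and the log2 change 1.47 ± 0.21 (limma adjusted p = 0.000400). Leaving out 1 library at a time gave log2 changes of 1.36 to 1.57, all past the threshold.

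NR4A3 (NOR-1, ENSG00000119508) was almost silent in the controls, with 7 and 8 reads (0.0590 and 0.0808 RPKM), and had 149 and 121 reads after induction (1.25 and 1.20 RPKM). The counting intervals of the controls ended at 0.122 and 0.159 RPKM, and those of the induced libraries began at 1.06 and 0.996 RPKM. Its fold of means was 17.5, second only to IER3 among the 10 genes. With a mean of 0.647 RPKM it stood below the filter. In the fit without a filter, over 20689 genes of which 3.98% were called higher, its log2 change was 1.06 ± 0.10 (limma adjusted p = 0.0196).

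NR4A2 (Nurr1, ENSG00000153234), known from dopamine neurons, was at 0.98 and 0.90 RPKM in the controls and at 0.627 and 1.31 RPKM after induction. One induced library lay below and the other above both controls, and the group means were 0.940 and 0.969 RPKM. In the fit without a filter its log2 change was -0.00062 ± 0.23 (limma adjusted p = 0.999).

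IER3 (ENSG00000137331) had the largest change of the 10 genes and ranked 7 of all 10771 tested genes by its log2 change. It was at 15.0 and 4.09 RPKM in the controls (381 and 87 reads) and at 1325 and 704 RPKM after induction (33938 and 15241 reads). The induced libraries stood far above both controls, although the controls differed 3.66-fold and the induced libraries 1.88-fold. IER3-AS1 overlaps it on the opposite strand over 394 bases, and the reads of the overlap cannot be told apart. The fold of means was 106, and the log2 change was 6.74 ± 0.47 (limma adjusted p = 4.32e-06). Untreated control 1 was the higher control for IER3 and also for GADD45G, with 10.5 against 0.289 RPKM, and whether the one bears on the other was not tested. Without untreated control 1 the log2 change of IER3 was 7.57, and without untreated control 2 it was 5.92, which moves the fold by more than 1.5 times in either direction.

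IER5 (ENSG00000162783), a nuclear protein that binds the phosphatase PP2A and the heat shock factor HSF1, was at 16.5 and 13.0 RPKM in the controls and at 66.8 and 37.0 RPKM after induction. All induced values exceeded all control values. The fold of means was 3.52 and the log2 change 1.70 ± 0.30 (limma adjusted p = 0.00120). In the fit without a filter it missed the threshold (limma adjusted p = 0.0523), where IER3, EGR2, NR4A1 and NR4A3 were the 4 that passed.

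IER2 (ENSG00000160888), its smaller relative, was the highest of the IER genes in the controls and did not pass. It was at 23.3 and 20.9 RPKM in the controls and at 45.9 and 24.8 RPKM after induction. Both induced values lay above the controls, but the counting intervals of GADD45g induced 2 (23.4 to 26.2 RPKM) and untreated control 1 (22.1 to 24.6 RPKM) overlapped. An antisense gene shares 1123 bases with IER2. The log2 change was 0.59 ± 0.29 (limma adjusted p = 0.135), with a 95% interval of -0.055 to 1.24. It was 1.02 without GADD45g induced 2 (limma adjusted p = 0.0316) and 0.16 without GADD45g induced 1 (0.746), and it passed after upper quartile scaling (0.0488).

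The induced libraries differed from each other to an unequal degree across the 10 genes, which was noticed after the values were seen and not tested. GADD45g induced 1 exceeded GADD45g induced 2 by 1.88-fold for IER3, 1.85-fold for IER2 and 1.81-fold for IER5. The same ratio was 1.02 for EGR2, 1.04 for NR4A3, 1.18 for NR4A1, 1.24 for SRF, 2.37 for EGR1 and 1.53 for GADD45G. For EGR3 and NR4A2 GADD45g induced 2 was the higher, by 2.96-fold and 2.09-fold. GADD45g induced 1 is also one of the libraries with epithelial markers, and their part in these ratios was not tested. On their own, the number 2 libraries gave log2 differences of 7.11 for IER3, 2.24 for EGR2, 1.44 for IER5 and 1.37 for NR4A1. For IER2, SRF and EGR1 they gave 0.24, -0.34 and -1.11. The number 1 libraries gave 6.38, 2.27, 1.95 and 1.56 for the former and 0.95, 0.13 and 0.18 for the latter.

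**Figure D2:**
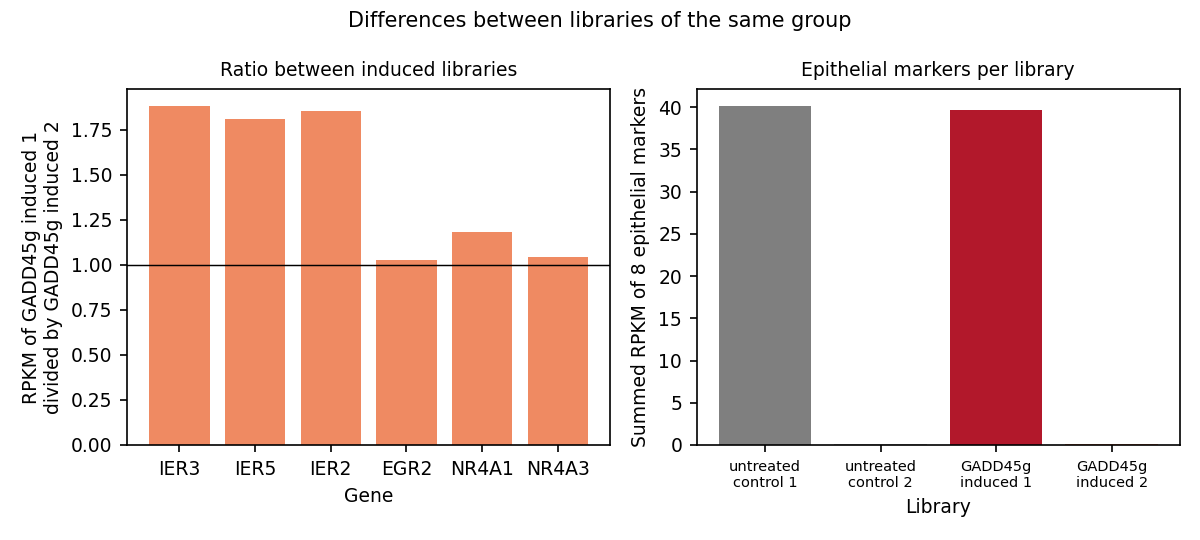
Left, RPKM of GADD45g induced 1 divided by that of GADD45g induced 2 for the 6 genes whose induced values lay above both controls, where the IER bars reach 1.81 to 1.88 and the others 1.02 to 1.18. Right, summed RPKM of 8 epithelial markers per library, near 40 in both number 1 libraries and close to 0 in both number 2 libraries.

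SRF (ENSG00000112658), the transcription factor upstream of many immediate early genes, did not pass. It was at 29.7 and 33.4 RPKM in the controls and at 32.5 and 26.2 RPKM after induction, and the groups overlapped. The log2 change was -0.11 ± 0.24 (limma adjusted p = 0.752), with a 95% interval of -0.63 to 0.42, and its sign turned with upper quartile, quantile and median scaling and without GADD45g induced 2 (0.045). SRF and EGR1, both with 2 CArG boxes in the windows shown above, did not pass the test, while EGR2, with 1, did. Which start sites were in use was not measured, and whether the boxes bear on these changes was not tested.

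**Figure D3:**
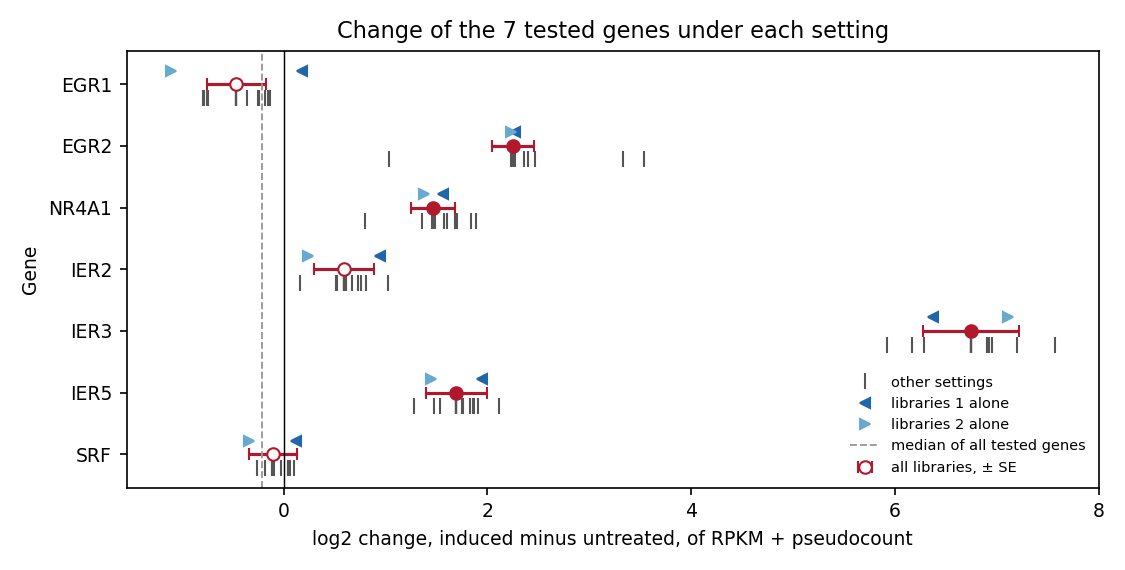
The log2 change (x axis) of the 7 tested genes, with circles and SE bars for all libraries, filled where the adjusted p was under 0.05, ticks for other settings and triangles for either pair of libraries alone. IER3 stands near 6.74, EGR2, IER5 and NR4A1 between 1.47 and 2.25, and EGR1 and SRF around the dashed median of all tested genes.

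A list of 10 genes held partners and relatives of the EGR, NR4A and IER proteins and, beside them, the nuclear protein gene CSRNP1. Of these 7 were tested, 2 rose and 0 fell, with a median log2 change of 0.28, where 12.2% of all tested genes rose, 26.7% fell and the median was -0.21. CSRNP1, a nuclear protein induced by AXIN1, went from 4.14 and 4.38 RPKM to 32.7 and 27.5 RPKM (log2 change 2.56 ± 0.22, limma adjusted p = 1.81e-05), with no overlap. NAB2, the corepressor that EGR factors themselves induce and that restrains them, went from 4.65 and 3.47 RPKM to 10.3 and 6.68 RPKM (0.89 ± 0.25, limma adjusted p = 0.0170). NAB2 no longer passed when GADD45g induced 1 (limma adjusted p = 0.200) or untreated control 2 (0.117) was left out, or when low genes were kept (0.127). Its relative NAB1 had a log2 change of 0.37, and RXRB, a retinoid receptor that pairs with NR4A1, one of -0.48, and neither passed. EGR4, WT1 and RXRG were at most 0.0268 RPKM in any library.

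Of 7 cofactors of SRF 5 were tested, 0 rose and 2 fell, with a median log2 change of -0.18. Both the count and the median are near those of all tested genes, of which 38.9% were called and 26.7% fell, with a median of -0.21. ELK3, an ETS factor that can repress SRF targets, fell from 19.1 and 17.3 RPKM to 9.88 and 10.1 RPKM (limma adjusted p = 0.0135). ELK4, another ETS partner, fell from 10.1 and 6.36 RPKM to 4.45 and 4.24 RPKM (limma adjusted p = 0.0312). Each lost its call when the median change was shifted to 0, at 0.0537 and 0.106, and ELK4 also after upper quartile scaling (0.0689) and quantile normalization (0.138). Without GADD45g induced 1, GADD45g induced 2 or untreated control 1, taken singly, 0 of the 5 passed. ELK1 had a log2 change of 0.59 and missed the threshold (0.0761), which it passed after upper quartile, quantile and median scaling (0.0241 to 0.0281).

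The cytoskeletal genes that SRF also controls, with its actin-sensing cofactors, numbered 18. Of these 14 were tested, 3 rose and 1 fell, against 12.2% and 26.7% of all tested genes, with a median log2 change of 0.27. TPM4, a tropomyosin, rose from 94.0 and 79.6 RPKM to 255 and 257 RPKM (log2 change 1.56 ± 0.25, limma adjusted p = 0.000729). Leaving out a library gave 1 call without GADD45g induced 1, 1 without GADD45g induced 2, 2 without untreated control 1 and 5 without untreated control 2.

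Most of the other immediate early genes that were tested passed, in a list chosen with earlier results of these data known. Of 34, 27 were tested, 20 rose and 3 fell, against 12.2% and 26.7% of all tested genes, with a median log2 change of 1.38, and leaving out 1 library at a time gave 20 to 23 calls. RGS2, called higher, reached a mean of 1 RPKM only through its induced values, as its control mean was 0.763 RPKM. DUSP2 and SIK1, called lower, reached it only through their controls, with induced means of 0.172 and 0.575 RPKM. The counts of this list thus include genes admitted by their own change. The phosphatase DUSP5 went from 11.6 and 6.32 RPKM to 533 and 523 RPKM (log2 change 5.79). TRIB1, a pseudokinase, went from 1.39 and 1.12 RPKM to 24.2 and 26.1 RPKM (3.54). JUN rose by 4.14 and MYC fell by 4.10 on the log2 scale. CCNL1, KLF10, FOS and KLF4 were the 4 that did not pass, named after their values were seen. FOS, the partner of JUN in AP-1 and a CArG box gene like EGR1, was at 25.5 and 28.1 RPKM in the controls and at 32.7 and 26.3 RPKM after induction, with overlapping groups.

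Upstream kinases and CREB factors numbered 26. Of these 25 were tested, 5 rose and 2 fell, against 12.2% and 26.7% of all tested genes, with a median log2 change of -0.01, and leaving out 1 library gave 2 to 6 calls. Those counts were 2 without GADD45g induced 2, 3 without GADD45g induced 1, 4 without untreated control 1 and 6 without untreated control 2. MAP2K1, the kinase that activates ERK, rose from 16.8 and 12.7 RPKM to 50.5 and 34.1 RPKM (log2 change 1.45 ± 0.27, limma adjusted p = 0.00164). RPS6KA4 (MSK2), a kinase that phosphorylates CREB and histone H3, fell from 7.92 and 8.74 RPKM to 3.18 and 2.52 RPKM (log2 change -1.28 ± 0.22, limma adjusted p = 0.00101).

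**Figure D4:**
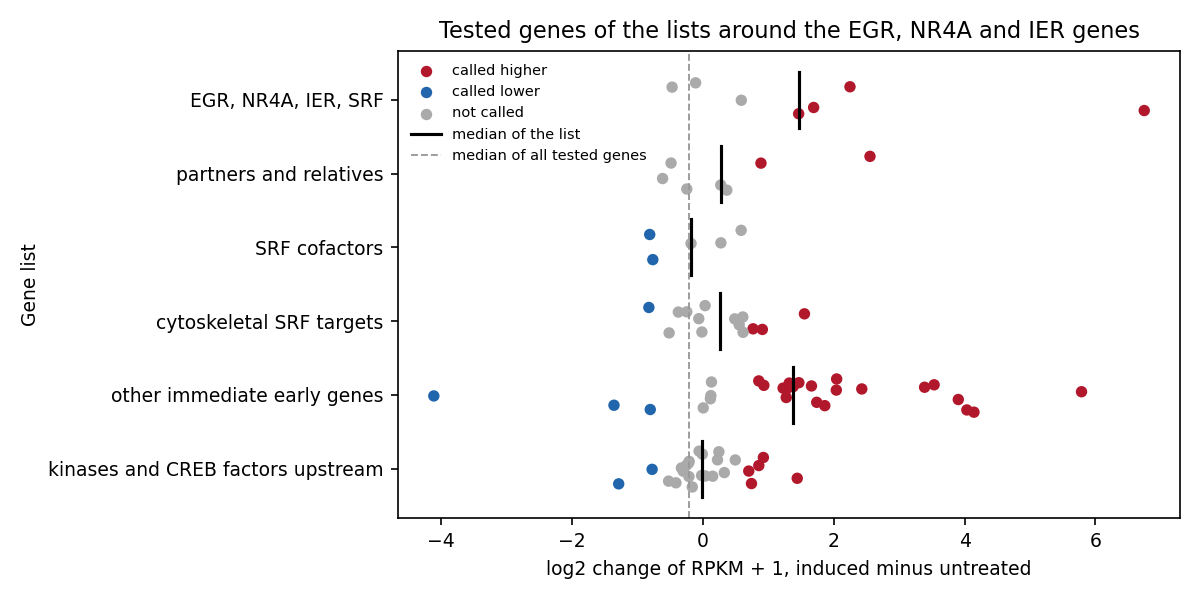
The log2 change (x axis) of each tested gene in the 6 lists, red where called higher, blue where called lower and grey where not called, with a black line at each list's median and a dashed line at the median of all tested genes. The medians of the EGR, NR4A, IER and SRF genes (1.47) and of the other immediate early genes (1.38) lie to the right of those of the other lists (-0.18 to 0.28). All 6 lists were chosen with earlier results of these data known.

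The genes whose profile over the 4 libraries was most like that of each member were found by the Euclidean distance between centred log2(RPKM + 1) values, among 10051 named genes. For IER3 they were INHBA, the activin A subunit, DUSP5 and the collagenase MMP1, at distances of 1.10 to 1.31. For EGR2 they were INHBA-AS1, the mitochondrial ribosomal gene MRPL52 and the ubiquitin ligase gene FBXO32 (0.0739 to 0.0953), of which INHBA-AS1 is an antisense gene whose reads are uncertain without strand. For NR4A1 they were MB21D2, DHRS13 and the mitochondrial iron importer SLC25A37 (0.0336 to 0.0545). For IER5 they included the mTORC1 inhibitor DDIT4 (0.193) and CHST7 (0.221). With 4 libraries, such likeness reflects the size of the change in log2(RPKM + 1) and the spread within each group. For low genes that change understates the fold. INHBA-AS1, at 0.0098 and 0 RPKM in the controls and 3.67 and 3.46 RPKM after induction, had a log2 change of only 2.18.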

How the data were processed

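Libraries were grouped by their treatment labels and numbered by the suffix of their titles. Per the file headers, the authors deposited RPKM for each library by Ensembl gene ID. TopHat, Cuffnorm, Cuffdiff and hg19 are named, without roles or versions, in the submitters' processing notes. No source used here states the strand. The file of GADD45g induced 1 as used here ends after 27332 of 57820 IDs, and genes were tested where all 4 libraries list them.

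Whole reads were recovered from the RPKM values with library depths at which 100% of low values (up to 20 reads) were whole within 0.01 reads. Gene lengths came from identical GENCODE 29 models or were the shortest length that made all values whole within 0.005 reads, which worked for 99.9% of tested IDs. Counting intervals (95%, exact Poisson) cover counting error only.

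Values were summed by symbol, genes averaging 1 RPKM or more were kept, and log2(RPKM + 1) was compared with limma 3.58.1 (R 4.3.3; lmFit, eBayes with trend, two-sided, residual df 2, prior df 8.72). The fit was tested on simulated data. The members and lists were chosen with earlier results of these data known. MRTFA, MRTFB, CCN1 and CCN2 stand for older names in the lists. Named genes were the 10 members, GADD45G, the 4 tested genes of a list that had the lowest adjusted p, and the 3 nearest profiles of each tested member, of which the text gives a part; 1 gene is not reported here. The settings varied were the scaling (upper quartile, quantile or median), the filter (absent, or 5 RPKM), the pseudocount (0.1 or 5), the eBayes options, a replicate block, the library left out and the handling of repeated symbols, and limma's voom was run on recovered reads. The 2 pairs of libraries taken alone were added after seeing the data. Promoters are RefSeq's on GRCh38.p14, another build than the files'. Nothing says that the libraries came from separate cultures beyond the words biological replicate experiments, so p-values measure the spread between these libraries. Each gene's spread was drawn toward a trend over all tested genes (prior df 8.72 against residual df 2), so it was not that gene's alone.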

Additional observations from a re-analysis of the deposited data

Results flagged for a closer look

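Genes that overlap IER3, NR4A1 and IER2 on the opposite strand in GENCODE 29 were not tested, because they are not listed for GADD45g induced 1 as used here, but were above both controls in GADD45g induced 2. IER3-AS1 was at 10.6 and 1.94 RPKM in the controls and at 366 RPKM in GADD45g induced 2. NR4A1AS was at 4.13 and 3.76 RPKM in the controls and at 10.4 RPKM in that library. The antisense gene ENSG00000267598, which overlaps IER2, was at 34.6 and 33.4 RPKM in the controls and at 45.8 RPKM. With no strand given for the libraries, reads of a gene and of its antisense partner cannot be told apart. The overlaps span 394 bases for IER3, 1045 bases for NR4A1 and 1123 bases for IER2.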

How the results depend on the processing

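Over 16 alternatives, IER3, EGR2 and NR4A1 passed wherever they were tested, IER5 passed in 15, IER2 in 3 and EGR1 and SRF in 0. A filter at 5 RPKM removes EGR1, EGR2 and NR4A1 from the test and left 2 called genes of 4. SRF turned sign with upper quartile (0.066), quantile (0.040) and median (0.11) scaling, without GADD45g induced 2 (0.045, against -0.26 without GADD45g induced 1) and, added after seeing the data, in the number 1 libraries alone (0.13), where EGR1 did too (0.18). The cause was not tested. With no filter, 2462 of 20689 genes were called against 4185 of 10771, and 25 genes of the 5 pathway lists against 38. Leaving out 1 library gave 2597 to 3582 calls, 4 to 5 of the 10 members and 26 to 38 of the pathway lists. The replicate block by title suffix gave 4987 calls and 5 members, adding IER2 (adjusted p = 0.0456), and 7 cytoskeletal SRF targets against 4. Its prior df were infinite, so its p-values rest wholly on the trend over all tested genes and on no gene's own spread. Deviations of libraries with the same number correlated at 0.349 across genes, but the labels do not say that the suffix marks a shared experiment. Limma's voom on recovered reads called 4 members. Depth limits EGR3 and the control values of NR4A3.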
